A study of Arabidopsis thaliana with 12 samples.

Results

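The transcript levels described here come from the 3 libraries of wild-type Arabidopsis (genotype col0) labelled as inflorescence meristem and low humidity, out of 12 libraries in the series. They were chosen by label alone, and no other group enters any value below. The remaining 9 libraries are wild type at high humidity and a mutant of the aquaporin gene PIP2;5 at both humidities, in groups of 3. Whether a replicate was 1 plant or a pool, how many tips were dissected, plant age and the humidity held are not in the labels, so the spread between replicates may be in part technical. Levels are the authors' deposited TPM (a scale per transcript length and library depth), and every ± is the SD over the 3 libraries.

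The inflorescence meristem is the dome of dividing cells at the tip of a flowering shoot that gives rise to flower primordia on its flanks. Its stem cells are kept in number by a loop in which the homeodomain protein WUS promotes stem cells and the CLV receptors, on sensing the CLV3 peptide, hold WUS back. KNOX proteins such as STM keep cells undifferentiated, and MADS-domain proteins of the A, B, C and SEPALLATA classes give floral organs their identity. Ribosomal and histone genes are known to be highly expressed in dividing tissue.

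The abundant ribosomal protein and photosynthesis genes differed in the short motifs of their promoters. Ribosomal protein genes were those with ribosomal protein in the RefSeq description. Photosynthesis genes were those found there by words for photosystem, antenna or Rubisco small subunit. These words missed some genes, such as the antenna gene LHCA1 and PSBO1 of the oxygen-evolving complex. Windows ran from 250 bases before to 50 after the outermost annotated start in the RefSeq annotation of TAIR10.1. The telo-box (AAACCCTA, either strand) was in the windows of 118 of 323 ribosomal protein genes, or 36.5%, against 6.22% of all 27443 protein-coding promoters of the same length. Site II (TGGGCC, either strand) was in 174 of the 323 ribosomal windows, or 53.9%, against 15.5% of all. The G-box (CACGTG, a palindrome, searched after the values were seen) was in 19 of 53 photosynthesis windows, or 35.8%, against 7.68% of all. TATAAA, searched on the sense strand, was in 41.2% of ribosomal and 26.4% of photosynthesis windows, against 37.2% of all. Both classes hold only genes with a TPM value, unlike the 27443. Over the 21474 protein-coding genes with a value, the telo-box was in 6.18%, site II in 18.2%, the G-box in 8.55% and TATAAA in 36.1%. None of the 4 motifs contains another, though a TATAAA match can share its last bases with a telo-box. Shown are the 200 bases before the start of the 2 ribosomal protein genes with the highest level among those whose stretch holds both the telo-box and site II, the 2 highest photosynthesis genes whose stretch holds a G-box, and WUS as a regulator of lower level than these. All are from TAIR10.1, 5′ to 3′ in the direction of transcription, on the minus strand, with matches to the 4 motifs in capitals.
AT5G15200 (ribosomal protein S4, chr5:4936430-4936629): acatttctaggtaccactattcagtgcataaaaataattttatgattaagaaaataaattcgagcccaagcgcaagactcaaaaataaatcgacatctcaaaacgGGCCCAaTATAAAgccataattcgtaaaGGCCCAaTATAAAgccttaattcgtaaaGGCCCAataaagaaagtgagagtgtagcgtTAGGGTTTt
AT4G27090 (ribosomal protein L14, chr4:13595253-13595452): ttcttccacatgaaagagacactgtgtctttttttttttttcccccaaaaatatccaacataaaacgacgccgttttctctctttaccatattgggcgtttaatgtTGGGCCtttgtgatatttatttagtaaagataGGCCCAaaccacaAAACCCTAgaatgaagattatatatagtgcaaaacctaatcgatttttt
LHCA4 (antenna of photosystem I, chr3:17495034-17495233): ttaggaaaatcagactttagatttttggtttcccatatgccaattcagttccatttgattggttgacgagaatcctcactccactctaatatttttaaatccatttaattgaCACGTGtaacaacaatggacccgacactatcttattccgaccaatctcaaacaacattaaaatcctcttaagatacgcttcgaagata
RBCS2B (Rubisco small subunit, chr5:15382072-15382271): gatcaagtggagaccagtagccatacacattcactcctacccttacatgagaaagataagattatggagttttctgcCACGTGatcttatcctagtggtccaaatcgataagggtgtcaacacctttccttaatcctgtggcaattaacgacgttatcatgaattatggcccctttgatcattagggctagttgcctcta
WUS (chr2:7810812-7811011): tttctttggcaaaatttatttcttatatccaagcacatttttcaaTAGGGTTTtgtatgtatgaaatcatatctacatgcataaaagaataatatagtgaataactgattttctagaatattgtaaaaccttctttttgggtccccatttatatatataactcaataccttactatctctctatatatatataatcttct
AT5G15200 held 3 site II matches and 1 telo-box, and its level was 739 TPM. AT4G27090 held 2 and 1 at 720 TPM. LHCA4 held 1 G-box at 1780 TPM and RBCS2B 1 at 1624 TPM. The WUS stretch also held 1 telo-box, at a level of 27.7 TPM. By level, the telo-box was in 9.41% of promoters below 1 TPM, 5.93% at 1 to 10 and 5.26% at 10 to 100 TPM. It was in 11.0% at 100 to 1000 TPM and 8.96% at 1000 TPM and above. The motif was thus not limited to abundant genes. A match is a run of letters and says nothing of whether a factor binds there.

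The 3 libraries held 20611944, 18010889 and 20384128 counts. Across the 20369 genes defined as expressed, Pearson's r of log2(TPM + 1) was 0.9875 to 0.9902 between pairs of libraries, as a description across genes. Of 25424 genes in the table, 22887 had a TPM value. Replicate 1 had no gene at 0 counts, while replicates 2 and 3 had 1278 and 1242, so genes silent in replicate 1 are not analysed here.

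Expression was broad, with a small set of very abundant transcripts. At least 1 TPM in all 3 libraries was reached by 20369 of the 22887 genes, which is 89.0%. A mean of at least 100 TPM was reached by 1593 genes, or 6.96%, and of at least 1000 TPM by 69. The median gene stood at 14.8 TPM, and the middle 50% of genes lay between 4.69 and 33.3 TPM. The 10 most abundant genes held 4.79% of the deposited TPM, the top 100 held 16.7% and the top 1000 held 46.0%. The 1268 most abundant genes, 5.54% of those with a value, held 50%.

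**Figure D1:**
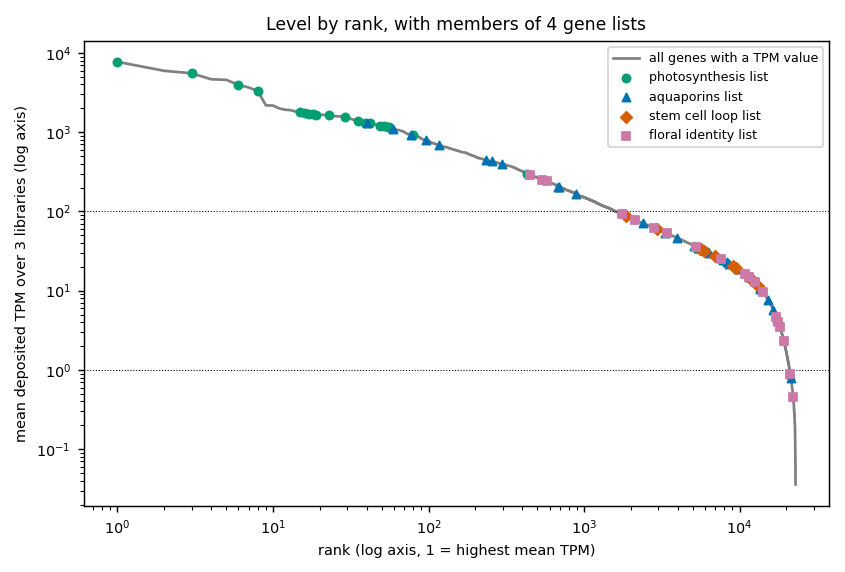
Mean deposited TPM over the 3 libraries (log axis) against rank (log axis) for all genes with a value, with the members of 4 lists as coloured symbols. The photosynthesis genes crowd the top from RBCS1A at 7714 TPM, and the aquaporins spread over a wide range. No stem cell loop gene reaches 100 TPM, a level reached by 6.96% of all genes. Dotted lines mark 1 and 100 TPM.

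The most abundant transcript was that of RBCS1A, a small subunit of the carbon-fixing enzyme Rubisco, with 7340, 8111 and 7692 TPM in replicates 1, 2 and 3 (7714 ± 386). AT2G20870, described as a cell wall protein precursor, had 5169, 6320 and 6352 TPM and ranked second. LHCB1.3 (RefSeq symbol CAB1), an antenna protein that binds chlorophyll around photosystem II, had 5432, 5354 and 5822 TPM. The ranges of AT2G20870 and LHCB1.3 overlapped, so their order was not settled, while RBCS1A was above both in every library. Next came the lipid transfer protein gene LTP1 (RefSeq symbol LP1), which acts at the plant surface, with 4633, 5449 and 3883 TPM (4655 ± 783). VSP1, a vegetative storage protein known to respond to jasmonate, had 4708, 4423 and 4593 TPM. LTP1 varied more between libraries than VSP1 (SD 783 against 143), and their ranges overlapped.

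The other 15 of the 20 highest genes lay between 1663 and 3960 TPM. They held 7 further photosynthesis genes in addition to RBCS3B (3960 TPM). PSBR of photosystem II stood at 3287 TPM, and the antenna genes LHCA4, LHCB5, LHCB1.2, LHCA1 and LHCB3 lay between 1671 and 1780 TPM. PSAG of photosystem I was listed at 1663 TPM but had only 1341 to 1599 counts, which rebuilt to 154 TPM over its exon length. MT2B, a metallothionein that binds metal ions, had 3517, 3653 and 3820 TPM. Surface and wall genes made up most of the rest. LTP6 had 2167 TPM, the xyloglucan-modifying enzyme gene XTH9 had 1918, the GDSL lipase gene AT5G33370 had 1897 and AT2G10940, of the lipid transfer superfamily, had 1818. AT5G22430, of the Pollen Ole e 1 family, stood at 2181 TPM and MLP423 at 1991. Replicate 1 was the lowest library for 14 of the 20 genes, against 3479 of the 13929 genes with a mean of at least 10 TPM. Among all genes at 1000 TPM and above it was the highest library for 15.9%.

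**Figure D2:**
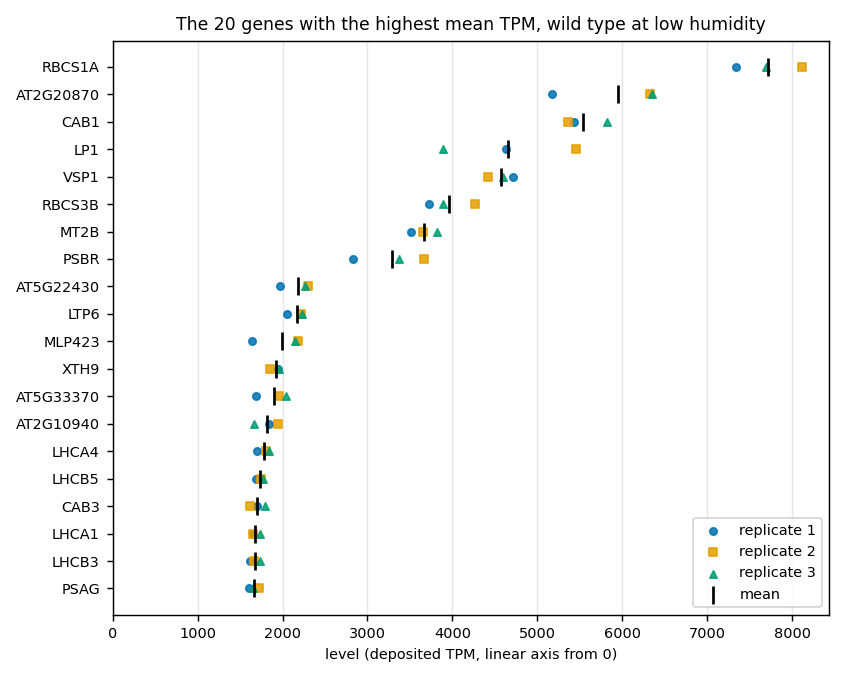
Deposited TPM (linear axis from 0) of the 20 genes with the highest mean, with 1 symbol per replicate and a bar at the mean. RBCS1A lies above all others in each library, and LTP1 (drawn as LP1) has the widest spread, from 3883 to 5449 TPM.

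Photosynthesis genes had the highest median of the lists examined. All 21 members with a value were expressed, against 89.0% of all genes, and 20 exceeded 100 TPM, against 6.96%, with a median of 1546 TPM against 14.8 over all genes. In a class named by words of the RefSeq descriptions, 54 genes held 5.92%, 6.40% and 6.33% of the deposited TPM in the 3 libraries. Of the 54, 26 were in the top 100 of all 22887 genes. The words used missed the listed genes LHCA1, PSBO1 and RCA, so these shares leave them out. Within the list the members were not even. PSBO1 of the oxygen-evolving complex had 1546 TPM and the Rubisco activase gene RCA had 1388, while RBCS1B had 298 and LHCB1.4 had 31.8.

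Several of these genes are near-identical copies, between which the authors' counting could split reads. The 3 LHCB1 copies of chromosome 1 have coding sequences of 804 bases and differ at 47 positions among them. Their levels were 1324 ± 24.7 TPM for LHCB1.1, 1703 ± 86.3 for LHCB1.2 and 5536 ± 251 for LHCB1.3. Bases 1 to 90 of each coding sequence (TAIR10.1, counted from the start codon) are the stretch of that length with the most differences, shown because such positions are what tells the copies apart. Capitals mark the 9 positions that differ.
LHCB1.1: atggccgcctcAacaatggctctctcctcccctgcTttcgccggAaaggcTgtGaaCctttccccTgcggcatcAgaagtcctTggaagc
LHCB1.2: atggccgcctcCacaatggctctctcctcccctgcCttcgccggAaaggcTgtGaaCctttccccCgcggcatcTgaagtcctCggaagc
LHCB1.3: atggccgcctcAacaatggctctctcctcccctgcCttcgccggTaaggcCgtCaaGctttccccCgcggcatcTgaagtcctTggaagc
In pairs the copies were 95.6% to 96.4% identical. RBCS2B and RBCS3B were 94.3% identical with 1624 and 3960 TPM. Whether reads were split between the copies was not tested.

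Genes of protein synthesis and of chromatin were abundant as groups. Of 323 ribosomal protein genes, 320 were expressed, against 89.0% of all genes, and 189 exceeded 100 TPM, against 6.96%. Their median was 134 TPM. Together they held 6.97% ± 0.109 of the deposited TPM. The 54 photosynthesis genes, a class without LHCA1, PSBO1 and RCA, held 6.22% ± 0.260. Of the 323 ribosomal protein genes 4 were in the top 100, against 100 of all 22887 genes. The highest was AT1G70600 (L18e/L15 superfamily) at 1256 TPM, followed by emb2386 (L19e family) at 942 and RP1 at 804. The lowest were AT3G48960 (L13e family) at 0.644, AT5G14290 (mitochondrial L37) at 0.726 and AT5G25230 at 0.850 TPM. The last is described as an S5/elongation factor G family protein, so the words of a description do not always mark a ribosomal subunit.

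All 13 genes of the translation list were expressed, against 89.0% of all genes. The elongation factor Tu family gene AT5G60390 had 1699, 1503 and 1577 TPM, above its 3 relatives AT1G07920, AT1G07930 and AT1G07940 at 240 to 349 TPM. AT1G07920 is 93.9% identical to it in coding sequence. TCTP had 1340 TPM, the initiation factor 5A gene FBR12 860 and the elongation factor gene LOS1 628, while another factor 5A gene, ELF5A-1, had 6.61.

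Histones package DNA, and their replicative forms are made as DNA is copied. All 32 listed histone genes were expressed, against 89.0% of all genes, and 24 exceeded 100 TPM, against 6.96%, with a median of 215 TPM. The 5 genes for the replicative H3.1 summed to 1419 ± 64.2 TPM and the 3 for the replacement form H3.3 to 1095 ± 27.7. Within H3.1, AT5G65360 had 453 TPM, AT1G09200 393, AT5G10400 307, AT3G27360 172 and AT5G10390 94.1. AT3G27360 rebuilt to 42.2 TPM from its counts. For H3.3, AT4G40040 had 418 TPM, AT4G40030 377 and AT5G10980 300. HTR12, the centromeric H3, was at 9.61 TPM and the linker histone gene HIS1-3 at 3.32. For H4, AT5G59690 had 423 TPM, AT1G07820 270, HIS4 253 and AT1G07660, the lowest, 92.8. The core H2A genes HTA10, HTA13, HTA2 and HTA1 had 357, 219, 136 and 64.7 TPM. Of the H2A variants, those named W (HTA6, HTA7 and HTA12) had 369, 203 and 25.8 TPM, X (HTA5 and HTA3) 174 and 113, and Z (HTA9, HTA11 and HTA8) 199, 85.6 and 23.7. The linker histone genes AT1G06760 and AT2G30620 stood at 395 and 230 TPM. In most types 1 gene thus stood well above the lowest of its type.

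All 38 cell cycle genes were expressed, against 89.0% of all genes, with a median of 27.4 TPM. In this list 2 of the 38 passed 100 TPM, against 6.96% of all genes. They were TSO2, a ribonucleotide reductase subunit that supplies DNA building blocks (142 TPM), and KN, the syntaxin of the dividing cell plate (107 TPM). Among D-type cyclins, which start the cycle, CYCD3;3 had 90.9 TPM, CYCD1;1 66.5, CYCD3;1 44.8 and CYCD2;1 14.6. Of the kinases, CDKB2;1 had 53.7 TPM, CDKA;1 31.6, CDKB1;1 24.7 and CDKB1;2 15.1. Mitotic genes further included CDC20.1 at 62.3, CYCB1;2 at 53.9, 42.4 and 53.8 and CYCB1;3 at 12.3 TPM, and replication genes PCNA2 at 54.1, PCNA1 at 52.0 and MCM6 at 19.5. The inhibitor KRP2 stood at 99.1 TPM, above the retinoblastoma-related gene RBR1 at 29.7, KRP6 at 16.8 and KRP3 at 6.72.

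Tubulins and actins build the cytoskeleton. All 15 tubulin genes were expressed, against 89.0% of all genes. In the alpha family TUA6 had 819 TPM, TUA4 690, TUA2 578, TUA5 377, TUA3 266 and TUA1 49.8. In the beta family TUB3 had 462 TPM, TUB2 387, TUB4 342, TUB7 295, TUB6 162, TUB5 153, TUB8 128, TUB9 114 and TUB1 19.9. TUA2 and TUA4 are 96.6% identical in coding sequence, TUA3 and TUA5 97.9% and TUB2 and TUB3 97.6%. The ranges within each of these pairs did not overlap, and whether reads were shared between the copies was not tested. Among actins, ACT7 led with 581 TPM, ACT2 had 214 and ACT8 111, while ACT4 had 27.6.

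Regulators of the stem cell loop lay between 11.3 and 87.7 TPM, with a median of 27.7 TPM against 14.8 over all genes. Whether a level reflects few cells with much RNA or many cells with little cannot be told apart in such bulk samples. WUS had 24.4, 30.7 and 28.1 TPM (27.7 ± 3.15), rank 6927 of 22887. Of its HAM partners, HAM1 had 33.9 TPM, HAM2 32.1 and HAM3 14.0. The ranges of HAM1, HAM2 and WUS overlapped in that order, and HAM3 lay below them in every library. WUS was highest in replicate 2, the library in which most of the others were lowest.

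Among receptors of the loop, BAM1 was highest with 95.2, 80.5 and 87.5 TPM, followed by BAM2 with 60.2 ± 5.13 TPM. BAM3 had 34.0 ± 4.63 TPM, RPK2 20.7 ± 1.97 and CLV1 19.4 ± 1.01. CRN, a pseudokinase partner of CLV2, had 14.4, 12.3 and 14.6 TPM, and CLV2 11.3 ± 1.14. BAM1, BAM2 and BAM3 had separate ranges, while RPK2 and CLV1 overlapped. CLV1, which binds the CLV3 peptide, thus had the lowest mean of these 5 kinases. All 11 members with a value were expressed, against 89.0% of all genes, with a median of 27.7 TPM. None exceeded 100 TPM, which 6.96% of all genes reached. CLV3 is not analysed here.

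Of the KNOX genes and their BELL partners, STM, KNAT1, BLH9 and ATH1 lay close together, and the others were lower. STM had 27.4, 21.1 and 25.8 TPM, and KNAT1, which acts in the stem and meristem, had 26.4, 23.7 and 24.2. Their means were both 24.8 TPM and their ranges overlapped. KNAT6 had 5.11 ± 0.902 TPM and KNAT2 2.09 ± 0.340. The BELL partners BLH9 and ATH1 stood at 26.1 and 25.6 TPM, and BLH8 at 5.05. Rebuilt from counts, STM came to 40.3 TPM and KNAT1 to 35.7.

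Boundary genes, which separate primordia from the meristem, were low. CUC2 had 5.69 ± 0.850 TPM, CUC3 4.36 ± 0.978, CUC1 3.90 ± 0.236, LOB 2.47 ± 0.0368 and LAS 0.844 ± 0.449. The ranges of CUC2 and CUC3 overlapped, and LAS fell short of 1 TPM in 2 libraries, with 1.32, 0.433 and 0.775 TPM. Among genes of the primordia, AS1 had 73.6 TPM, ANT 45.0, AS2 9.54, AIL5 6.45, AIL6 3.98 and AIL7 1.69. DRN and DRNL are not analysed here. Of the 18 members with a value 17 were expressed, against 89.0% of all genes, with a median of 5.40 TPM, below the 14.8 TPM of all genes.

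HD-ZIP III genes specify the upper side of organs and the vascular tissue. REV had 38.6, 30.4 and 35.1 TPM, PHV 32.1, 32.1 and 31.1, CNA 27.7, 23.7 and 27.6, PHB 23.6, 18.7 and 20.4, and ATHB8 11.3, 8.64 and 10.3. REV and PHV overlapped, and each later gene lay below the one before it without overlap. The order was therefore REV or PHV, then CNA, PHB and ATHB8.

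Floral identity genes ranged from 0.456 to 290 TPM. The 3 highest were SEP3, which joins the floral MADS proteins into complexes, with 262, 323 and 285 TPM, and the B-function genes AP3 with 232, 266 and 257 TPM and PI with 220, 254 and 242 TPM. The ranges of SEP3 and AP3 overlapped, as did those of AP3 and PI, while SEP3 lay above PI. All 3 genes were lowest in replicate 1 and highest in replicate 2, which was the highest library for 39.0% of all genes at 100 to 1000 TPM. SEP2 had 91.9 ± 4.08 TPM, SEP1 62.2 ± 2.03 and SEP4 9.50 ± 1.16. AP1, which marks floral meristems and acts in the outer whorls, had 78.5 ± 5.06 TPM, AP2 52.8 ± 0.662 and the C-function gene AG 35.9 ± 0.808.

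Of the 6 genes of meristem identity, AP1 held 87.5% of the summed level, and the other 5 were below 5 TPM by mean. LFY, which turns on floral fate, had 3.24, 1.68 and 2.13 TPM, and its partner UFO had 0.768, 0.283 and 0.316. TFL1, which keeps the shoot apex from becoming a flower, had 1.41, 0.547 and 0.699 TPM. CAL stood at 4.01 and FD at 3.47 TPM. For ovule and fruit, CRC had 31.6, 19.3 and 24.1 TPM, SHP1 16.1, STK 14.8, SHP2 12.7 and SUP 4.59. LFY, UFO, TFL1 and FD were highest in replicate 1 and CAL in replicate 3. Replicate 1 was the highest library for 46.0% of all genes at 1 to 10 TPM. Genes with 0 counts in replicate 1 are not analysed, which can favour that library among genes as low as UFO and TFL1. Rebuilt from counts, AG came to 80.5 TPM, AP1 to 154, PI to 411 and SEP3 to 490, each over 1.5 times its deposited value, as were AP3 and SEP2.

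**Figure D3:**
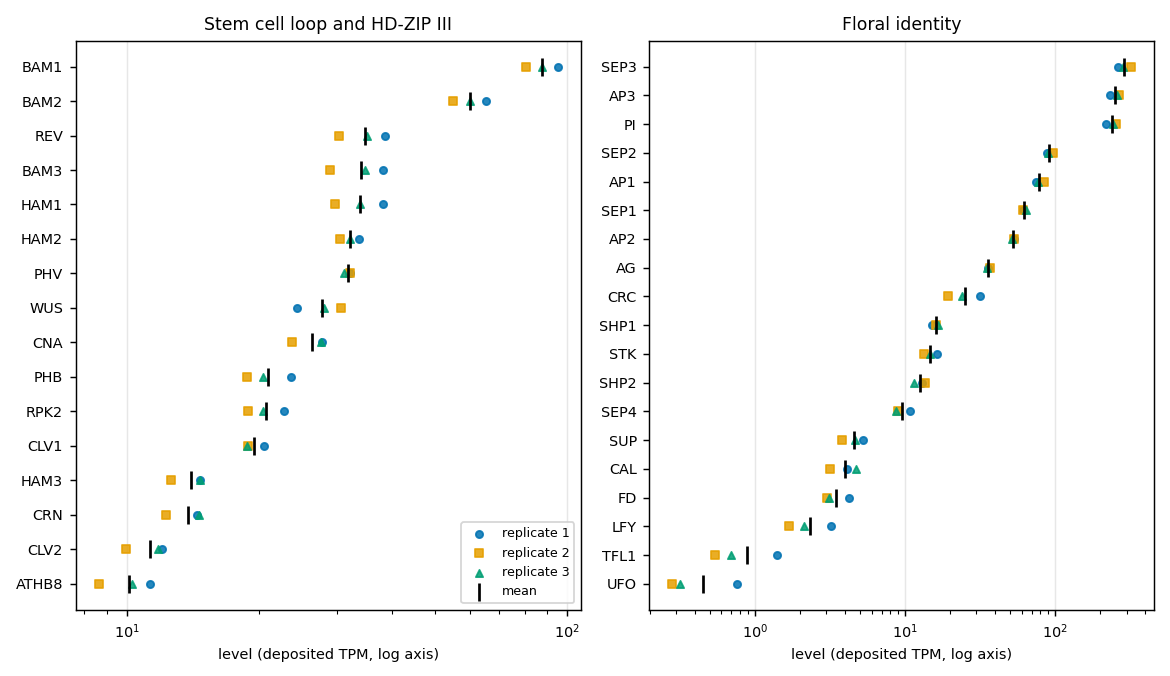
Deposited TPM (log axis) of stem cell loop and HD-ZIP III genes (left) and floral identity genes (right), with 1 symbol per replicate and a bar at the mean. SEP3, AP3 and PI lie above 200 TPM in every library, WUS lies between 24.4 and 30.7 TPM, and UFO lies below 1 TPM.

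In the floral transition list, SPL9 had 98.5 TPM, FUL 18.9, SOC1 9.22 and FLC, a repressor of flowering, 1.06. SPL3 was listed at 282, 369 and 324 TPM but had 2, 1 and 0 counts, so its deposited level has almost no counts behind it. It overlaps AT2G33815 in TAIR10.1. The labels and notes do not state the strand setting of the counting, and the reads of overlapping genes cannot be assigned with certainty.

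The same gap between TPM and counts appeared elsewhere among abundant genes. Of 1592 genes at 100 TPM or more that could be compared, 77 had a deposited TPM at least 4 times the value rebuilt from the deposited counts and exon lengths, and 0 had the opposite. Of those 77, 71 (92.2%) overlap another annotated gene, against 403 of the other 1515 (26.6%). GER1 was listed at 1192 TPM with 3 to 5 counts, AGP21 at 1084 TPM with 1 to 3, and F3H, an enzyme of flavonoid synthesis, at 361 TPM with 0 to 2. These 3 genes were chosen after their values were seen. Across genes with a mean of at least 1 TPM the deposited and rebuilt values had a Spearman correlation of 0.917, and 16 of the top 20 genes were shared. The cause of the gap was not tested.

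Aquaporins, channels for water and small solutes, ranged from 0.793 to 1312 TPM. Those of the plasma membrane are the PIP1 and PIP2 groups, TIPs sit in the vacuole membrane, and NIPs and SIPs are further groups. Of 30 members with a value, 28 were expressed, against 89.0% of all genes, and 11 exceeded 100 TPM, against 6.96%, with a median of 35.9 TPM against 14.8 over all genes. TIPs summed to 2895 ± 77.3 TPM, PIP2s to 2072 ± 41.6, PIP1s to 1934 ± 10.2, SIPs to 122 ± 6.06 and NIPs to 99.3 ± 6.65.

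PIP2;7 (RefSeq symbol PIP3) was the highest aquaporin, with 1334, 1329 and 1273 TPM, and held 63.3% of the PIP2 sum. PIP2;1 followed with 397 ± 5.12 TPM and PIP2;6 with 205 ± 7.98. PIP2;5, the gene altered in the other genotype of the series, had 54.3, 53.9 and 53.1 TPM (53.8 ± 0.599), rank 3337. It varied little between libraries and lay 4th of the 8 PIP2 genes, apart from PIP2;6 above and PIP2;2 below in every library. PIP2;2 (35.0 TPM) and PIP2;3 (34.6 TPM) overlapped, and PIP2;8 and PIP2;4 had 24.1 and 10.7 TPM. PIP2;5 and PIP2;7 are 71.5% identical in coding sequence.

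The 5 PIP1 genes all exceeded 100 TPM, against 6.96% of all genes. PIP1;2 had 701, 685 and 683 TPM, PIP1;3 446 ± 18.5, PIP1;4 429 ± 12.1, PIP1;5 204 ± 24.5 and PIP1;1 165 ± 15.4. PIP1;3 and PIP1;4 overlapped, as did PIP1;5 and PIP1;1. In the vacuole group TIP1;1 had 1092 ± 45.3 TPM, TIP2;1 944, 897 and 953 and TIP1;2 800 ± 13.5, with no overlap between them. TIP1;3 followed at 30.1 ± 8.33 TPM, a step of 26.6-fold, and TIP2;2 had 18.8, TIP5;1 14.8 and TIP4;1 7.54 TPM.

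Among the lower groups, SIP1;1 had 71.0 TPM, SIP2;1 46.5 and SIP1;2 4.39. NIP1;2 had 36.8 TPM, NIP7;1 22.8, NIP6;1 21.8, NIP5;1, known for boron uptake, 10.5, and NIP4;1 5.73. NIP1;1 (0.880 TPM) and NIP2;1 (0.793 TPM) did not reach 1 TPM in all libraries. NIP3;1 had no TPM value and 1 count in each library. TIP2;3, TIP3;1, BETA-TIP and NIP4;2 are not analysed here.

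**Figure D4:**
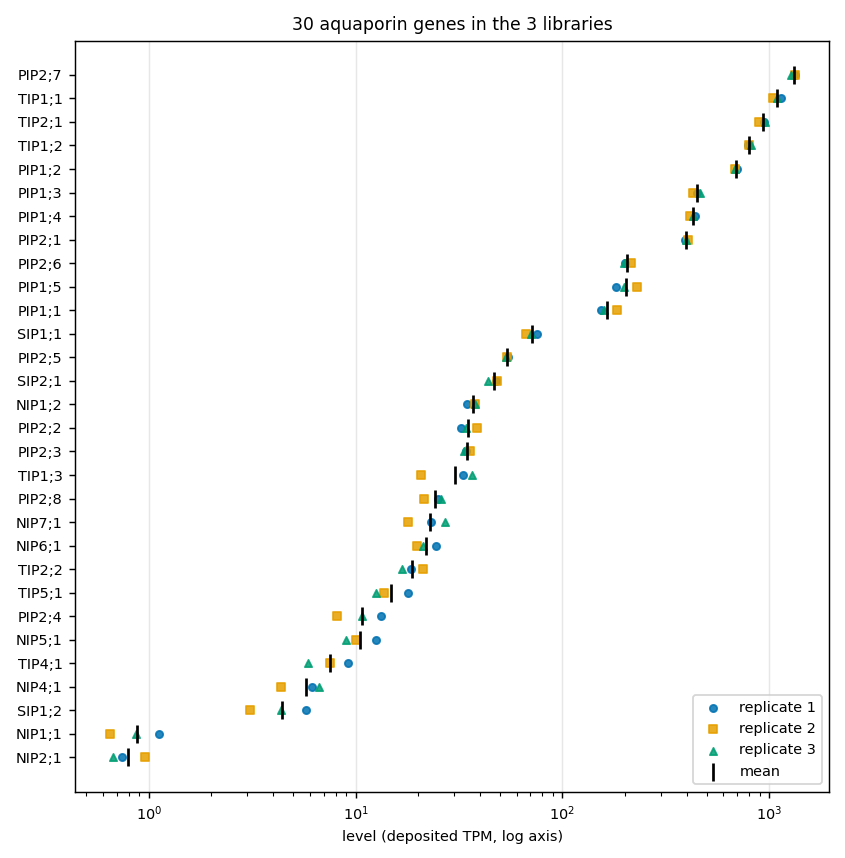
Deposited TPM (log axis) of the 30 aquaporin genes with a value, ordered by mean, with 1 symbol per replicate and a bar at the mean. Levels fall from PIP2;7 at 1312 TPM to NIP2;1 at 0.793 TPM, and PIP2;5 lies at 53.8 TPM with its 3 symbols almost on top of each other.

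Genes of the epidermis and its cuticle were abundant. Beside LTP1, PDF1, named for the protoderm, had 931 TPM, the wax genes CER1 and CER6 had 559 and 443, and CER5 had 58.8. The regulators PDF2 and ATML1, which set epidermal fate, had 72.3 and 62.9 TPM. For wall growth, the primary wall cellulose synthases CESA3, CESA1 and CESA6 had 155, 126 and 107 TPM, against 27.0, 18.9 and 14.3 for the secondary wall genes CESA4, CESA8 and CESA7. Expansins loosen walls, and EXPA6 at 275, EXPA1 at 162 and EXPA5 at 101 TPM led their list, with EXPA14 lowest at 2.13. CESA10 was the lowest of the first group at 2.63 TPM.

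Hormone genes were of middle level, with medians of 21.7 TPM for auxin and 11.1 for cytokinin. ARF2, an auxin response factor, had 145 TPM, ARF8 111 and ARF6 101, and ARF19 was lowest at 5.30. PIN7 was the highest auxin carrier at 69.2 TPM, followed by AUX1 at 52.6 and PIN3 at 34.6, and PIN2 was lowest at 0.923. AFB1, TIR1 and AFB3, auxin receptors, had 68.9, 50.1 and 43.5 TPM, and AFB2 25.5. The carriers thus spanned a wide range of levels. TAR2, TAA1 and YUC6, which make auxin, had 20.9, 17.5 and 9.29 TPM, and YUC1 0.694. In the cytokinin list the receptor AHK3 had 31.4 TPM, AHK2 17.9 and AHK4 8.81, and LOG7 was lowest at 0.832. Type-B regulators ARR12, ARR1 and ARR10 had 29.8, 23.9 and 12.1 TPM. Of the type-A regulators ARR16, ARR4 and ARR6 were highest at 19.6, 18.6 and 12.3 TPM, and ARR5 lowest at 2.80. ARR7 and ARR15, known as targets of WUS, had 9.37, 11.5 and 9.26 TPM and 3.57, 4.21 and 4.80 TPM, so both were expressed below the median of all genes.

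Genes of small RNA and chromatin control had a median of 19.0 TPM, with 24 of 26 members expressed, a share close to the 89.0% of all genes. AGO1, the main Argonaute for microRNAs, had 115 TPM, AGO4 54.5 and AGO10 40.3, and AGO3 was lowest at 1.19. The demethylase ROS1 had 39.6 TPM and the methyltransferases CMT3 and MET1 27.2 and 25.4, with DRM1 lowest at 1.36. In the Polycomb group MSI1 had 59.6 TPM, LHP1 25.8 and SWN 21.9. The seed-type members MEA and FIS2 were near 0, at 0.218 and 0.0742 TPM.

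Of protein-folding genes, HSC70-1 had 1604 TPM, BIP1 415 and BIP2 390, and BIP3, known for induction by protein stress in the endoplasmic reticulum, was at 0.648. HSP90.3, HSP90.2 and HSP90.4 had 400, 387 and 48.8 TPM, and HSP90.1 17.0. In the dehydration list COR6.6 had 1252 ± 125 TPM, COR15A 456 ± 21.4 and ERD14 369 ± 31.8, with LTI30 lowest at 10.3, while RD29B had no TPM value and 2 counts in replicate 1. Relative to its level, COR47 differed most between libraries, with 196, 230 and 128 TPM. COR6.6 and its copy KIN1 (356 TPM) are 95.0% identical in coding sequence. UBQ11, UBQ10 and UBQ14, polyubiquitin genes, had 758, 711 and 338 TPM, and UBQ4 91.6. Genes often used as references ran from 1593 TPM for AT5G60390, 711 for UBQ10 and 581 for ACT7 to 16.5 for PTB1. PP2AA3 had the smallest SD of them, with 34.7, 35.0 and 34.9 TPM. This SD is not relative to level, so it favours genes of low level. Of metallothioneins, MT2A had 1349 and MT3 645 TPM after MT2B, and MT1C was lowest at 1.63.

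Markers of other cell types bear on what the libraries contained. All 11 anther and tapetum markers were expressed, against 89.0% of all genes, and 6 exceeded 100 TPM, against 6.96%, with a summed level of 3845 ± 649 TPM. GRP19 and GRP17, oleosin-type proteins of the pollen coat made in the tapetum, had 1540, 1361 and 1836 TPM and 1497, 1274 and 1750 TPM, at ranks 27 and 30. AT5G07230, a tapetum gene, had 346, 186 and 316 TPM, and the pollen wall genes LAP6, ACOS5 and LAP5 had 148 ± 43.7, 128 ± 39.8 and 114 ± 35.8. Earlier regulators were lower, with AMS at 54.6 TPM, SPL at 18.1, MS1 at 8.30, TDF1 at 3.92 and DYT1 at 2.12. Replicate 2 was lowest for 10 of the 11. It was also lowest for 6112 of all 13929 genes with a mean of at least 10 TPM, more than either other library. The labels give only the meristem as tissue, while GRP19 and GRP17 stood above every shoot meristem marker in all 3 libraries.

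Vascular markers summed to 163 ± 22.6 TPM over 8 genes, led by the phloem gene SUC2 with 77.9, 52.9 and 69.4 TPM. Replicate 2 was lowest for all 8, against 6112 of the 13929 genes with a mean of at least 10 TPM. The 7 stomatal markers were all expressed, against 89.0% of all genes, from TMM at 19.6 to MUTE at 1.67 TPM, and summed to 57.5 ± 3.94. Of 5 root markers only WER had a TPM value, at 0.313, and none of the 5 seed markers had one. In each of these 2 sets only 3 of the 5 genes were in the deposited data. A gene without a TPM value can still have counts, so absence of these cell types was not tested. Of the 6 shoot meristem markers with a value, WUS, STM, KNAT1 and CLV1 lay between 19.4 and 27.7 TPM, LFY was at 2.35 and UFO at 0.456. How far the share of each cell type sets the levels above was not tested.

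Replicate spread was small for most genes and followed level. The median coefficient of variation was 14.7% at 1 to 10 TPM, 6.30% at 10 to 100, 5.14% at 100 to 1000 and 5.00% at 1000 and above. Of 13929 genes with a mean of at least 10 TPM, 212 (1.52%) had a highest library over 2 times the lowest. Replicate 3 was the lowest library for 170 of these 212, against 4338 of all 13929. The 5 widest by SD of log2(TPM + 1) were CYP76C3 with 43.0, 43.8 and 11.8 TPM, AT1G01980, a berberine-type oxidase, with 37.0, 26.9 and 8.93, AT1G54070 with 38.2, 42.7 and 12.1, the sugar transporter gene STP11 with 19.6, 13.9 and 4.81, and the thioredoxin family gene AT1G60740 with 58.0, 89.5 and 24.9. All 5 were lowest in replicate 3, whereas 10 of the 11 anther and tapetum markers were lowest in replicate 2.

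**Figure D5:**
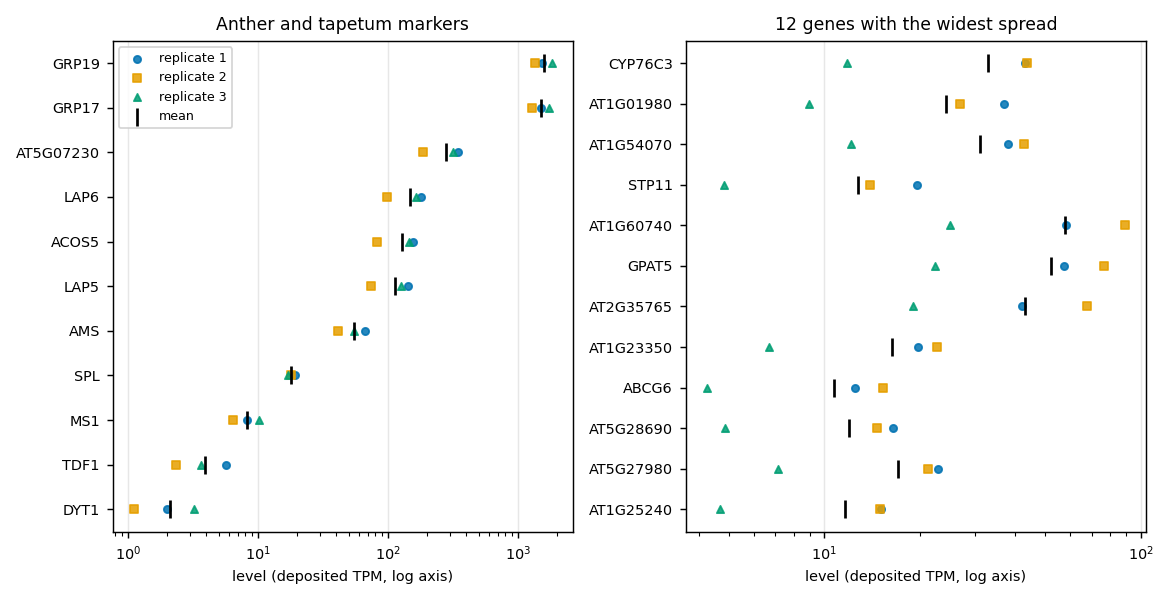
Deposited TPM (log axis) of the 11 anther and tapetum markers (left) and the 12 genes with the widest spread among those with a mean of at least 10 TPM (right), with 1 symbol per replicate and a bar at the mean. Replicate 2 is lowest for 10 of the 11 markers, whereas replicate 3 is lowest for the genes on the right. Among all 13929 genes with a mean of at least 10 TPM, replicate 2 is lowest for 6112 and replicate 3 for 4338.

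Coding length was lower in the classes of high TPM, and exon number showed no single direction. Protein-coding genes at 1000 TPM and above had medians of 627 coding bases and 2 exons, and those at 100 to 1000 TPM 789 bases and 4 exons. At 10 to 100 TPM the medians were 1185 bases and 5 exons, at 1 to 10 TPM 1149 bases and 3 exons, and below 1 TPM 1140 bases and 3 exons. Site II was in 9.77% of promoters below 1 TPM, 13.9% at 1 to 10, 20.4% at 10 to 100 and 28.5% at 100 to 1000 TPM, and in 16.4% among the 67 genes at 1000 TPM and above. TPM divides by length. With classes by CPM from the counts the medians were 1251 bases and 5 exons both at 10 to 100 and at 100 to 1000. At 1000 CPM and above they were 874 bases and 3 exons. At 1 to 10 CPM they were 1032 bases and 3 exons, and below 1 CPM 888 bases and 2 exons.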

How the data were processed

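RNA was sequenced from 3 wild-type low-humidity libraries. The submitters' processing notes name Trimmomatic 0.39, HISAT2 2.2.1, featureCounts 2.0.6 and the build TAIR10, without settings. Counts as deposited are whole numbers per gene, not normalized. The TPM values were made by the authors, by a step that the labels and notes do not describe. The TPM columns summed to 91.0% to 91.3% of a complete TPM column, and 0 columns were left unmapped to a sample. The notes do not state strand use.

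Means, SDs, ranks and list medians were computed with Python 3.11.15 and pandas 2.3.3. A gene was called expressed at 1 TPM or more in all 3 libraries. Neighbours in an order were called separate where their ranges over the 3 libraries did not overlap, and no test was made. Names, exon lengths and promoters came from RefSeq TAIR10.1, matched by locus for 25326 of 25424 genes. The summaries were tested on simulated data.

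Named genes are the 20 with the highest mean TPM, all aquaporin, stem cell loop, KNOX and boundary, HD-ZIP III and floral identity members, and H3 histones and tubulins. From each other list come the 3 highest and the lowest member per subgroup, and from ribosomal protein genes the 3 highest and 3 lowest. The 5 with the widest spread (mean of at least 10 TPM) and the 5 without TPM with the highest mean count complete the rule, and other named members of a list serve as context. The members and lists were chosen with earlier results of these data known. Alternatives covered thresholds, pseudocounts, CPM (counts scaled to library totals), each replicate left out and TPM rebuilt from counts.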

Additional observations from a re-analysis of the deposited data

Results flagged for a closer look

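The levels above do not cover genes without a TPM value. The 5 of these with the highest mean count are given here, and each was above the 3 counts that a count of 0 allows in every library. RXW8 had 670, 589 and 654 counts in replicates 1, 2 and 3 (mean 638). FHY1, a hydrolase gene, had 504, 441 and 490 (mean 478). AT1G75945 had 256, 251 and 254 (mean 254), and the lncRNA gene AT1G06957 had 134, 159 and 166 (mean 153). AT3G25810, described as a terpenoid cyclase, had 261, 167 and 71 counts (mean 166) and was lowest in replicate 3. Genes without a TPM value held 0.0329% to 0.0516% of the counts. Groups of 3 libraries are too small for a test of single outlying samples.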

How the results depend on the processing

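No paired analysis was possible because a single group is described and no test was made. The number of expressed genes was 19027 to 21383 under the alternatives run, against 20369 as defined. The number holding 50% of the TPM was 1237 to 1752, against 1268. Both stayed within 1.5 times of the main value. With CPM (counts scaled to library totals, not per length), the 10, 100 and 1000 most abundant genes held 3.07%, 12.8% and 39.5%. With TPM rebuilt from the deposited counts, chosen after seeing the data, they held 4.37%, 15.5% and 45.2%. The lowest pairwise Pearson's r was 0.9855 with a pseudocount of 0.1 TPM and 0.9894 without a filter, and leaving out a replicate gave 0.9875 to 0.9902. The median of the floral identity list was 15.7 to 16.5 TPM with a replicate left out. With classes by CPM, promoters at 100 to 1000 held the telo-box in 8.29% and site II in 24.9%, and the median coding length there was 1251 bases. Over all summary and list values, 140 of those with a replicate left out and 57 under other alternatives stayed within a set limit. The other 4 and 11, given above, moved more. The limit was the SD over replicates, or over pairs of libraries for Pearson's r. It was 1.5 times for counts of genes and coding length. For motif shares it was a Wilson interval of the percentage, and for median spread the width of the middle 50% of genes. Leaving out 1 of 3 libraries cannot move a mean by as much as the replicate SD, so the 140 say little about robustness. Levels and ranks of single named genes moved by more than 1 SD in 239 cases under another scaling or a median, and by less in 173. Relative spread was widest at 1 to 10 TPM, with a median coefficient of variation of 14.7%. 3 libraries bound the precision of every level, and which of the deposited and rebuilt values is nearer the true level was not tested.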
